A study of Oryctolagus cuniculus with 9 samples.

Results

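Mitochondrial ribosomal protein genes encode the proteins of the mitochondrial ribosome and are named MRPL for its large subunit and MRPS for its small subunit. They were taken from the expression table as every row whose gene name starts with MRPL or MRPS followed by a digit, without rows that join several names and with the row of the highest mean level for each name. This gave 65 genes of 19511 loci, of which 42 belong to the large subunit and 22 to the small subunit. The remaining gene, MRPS36, is now known as KGD4, a component of the 2-oxoglutarate dehydrogenase complex, and was counted in neither subunit. MRPS18A and MRPS30 carry small-subunit names but sit in the large subunit, where they were counted.

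The mitochondrial ribosome translates the few messenger RNAs made from mitochondrial DNA, all of which encode hydrophobic subunits of the respiratory chain and ATP synthase. Its RNAs are made in the mitochondrion, whereas its proteins are encoded in the nucleus, translated in the cytosol and imported. Some of the proteins have counterparts in bacterial ribosomes and others were added in the mitochondrial lineage. In the parathyroid gland, chief cells secrete parathyroid hormone and oxyphil cells are packed with mitochondria.

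The study asked how gallic acid, an antioxidant phenolic acid found in many plants, acts on primary rabbit (Oryctolagus cuniculus) parathyroid cells under hypoxia and reoxygenation, which stands in culture for ischaemia followed by reperfusion. Its 9 RNA libraries form 3 groups of 3. Control cells were untreated and are labelled day 0, H/R cells passed through hypoxia and reoxygenation (labelled 6H-6H), and GA+H/R cells were held in 1200 µM gallic acid for 24 h and then given the same hypoxia and reoxygenation. The genotype label is WT in control and names only the injury in the others (IRI, and IRI with GA), so no genetic change is named for any group. The number of animals, the separation of libraries into cultures and any matching 24 h wait of the H/R cells without gallic acid are not in the labels. Every p-value therefore measures the spread between these libraries, which may be technical.

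Values are FPKM (fragment counts normalized to transcript length and sequencing total), and read depth is unknown. The FPKM of a library summed to 1675000 ± 24600 in control, 744200 ± 12200 after H/R and 498100 ± 26700 after GA+H/R (SD, n = 3), and as deposited the log2 change of the median locus was -1.25 from control to H/R and -0.50 from H/R to GA+H/R. Because of this shift, changes are given relative to the median locus: a library's values were divided by its median ratio to the average library, and "rose" and "fell" mean called on that scale at an adjusted p under 0.05. The result on the deposited scale stands beside it, since the direction often differs. Control 1 stood apart from controls 2 and 3 (r = 0.984 and 0.982 across loci, against 0.997 between the other two). Markers of the labelled cell type were low. PTH, the hormone itself, averaged 0.123 FPKM over the controls, CHGA was listed at 0 in all 3 GA+H/R libraries, and the 7 parathyroid markers measured summed to 12.6 to 20.7 FPKM in control, 6.88 to 7.56 after H/R and 3.84 to 4.13 after GA+H/R. The 8 fibroblast markers measured summed to 128700 to 193000, 29400 to 29470 and 13920 to 14080 FPKM, and the 9 macrophage markers to 4.74 to 75.9, 19.6 to 22.9 and 145.6 to 152.1 FPKM. The sums are as deposited, where the median locus was also lower. Only 2 of the 7 parathyroid markers were tested. From control to H/R, neither was called relative to the median locus (median log2 change 0.11). From H/R to GA+H/R, 1 rose and 0 fell (0 also at an unadjusted p under 0.05 in limma), with a median of 0.06. As deposited, 2 and 1 were called lower, with medians of -0.98 and -0.40, beside -1.25 and -0.50 for all loci. In bulk RNA, fewer cells of a type and less RNA per cell cannot be told apart. The part of these cell type markers in the results below was not tested.

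Of the 65 genes, 62 were tested and 55 of these were at or above the minimum of 1 in all 9 libraries on the relative scale. MRPL21, MRPL39 and MRPL50 were under the minimum, with means of 0.0504, 0.638 and 0.297 FPKM in control, 0.0626, 0.293 and 0.141 after H/R, and 0.0278, 0.199 and 0.108 after GA+H/R. MRPL11, MRPL14, MRPL46, MRPS12, MRPS18B, MRPS18C and MRPS25 reached the minimum in some libraries, and MRPL46 and MRPS25 were under it in every control library. MRPS18C was under it in GA+H/R 3 only. The other genes that reached it in some libraries entered the test through the groups in which they are higher. The median level of the 65 genes was 11.2 ± 0.36 FPKM in control, 7.74 ± 0.269 after H/R and 5.53 ± 0.141 after GA+H/R (SD, n = 3). MRPL17 and MRPL37 had the highest means, with 279 ± 47.9 and 107 ± 18.4 FPKM in control, although the table gives no proof that FPKM of different loci share a scale. The median coefficient of variation between libraries of a group was 12.4% in control, 11.3% after H/R and 15% after GA+H/R for the members tested, beside 13.1%, 8.31% and 11.2% for all loci tested.

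**Figure D1:**
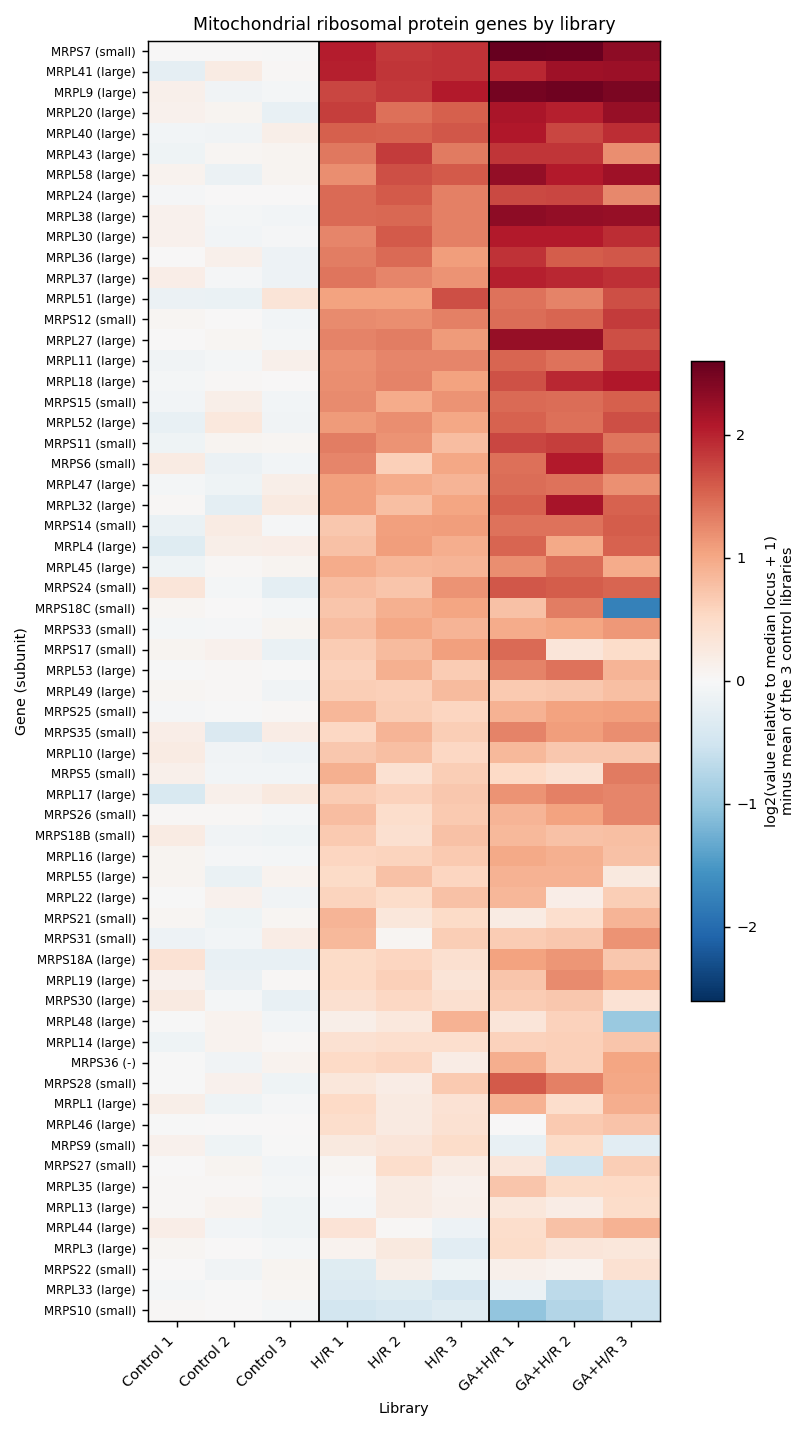
Level of each tested mitochondrial ribosomal protein gene (rows, with its subunit) in each of the 9 libraries (columns), as log2 of the value relative to the median locus plus 1, minus the mean of the 3 control libraries. Most rows are higher in the H/R libraries than in control and higher again in GA+H/R, whereas MRPS10 and MRPL33 are lower in both.

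After hypoxia and reoxygenation, most mitochondrial ribosomal protein transcripts rose relative to the median locus, whereas more of them were lower than higher on the deposited scale. Of the 62 genes tested, 47 rose, 2 fell and 13 were not called in H/R against control, where 29.2% of all 10956 loci rose and 28.4% fell. The median log2 change of the genes was 0.71, with quartiles of 0.47 and 1.23, against 0.00 for all loci. On the deposited scale 7 were higher and 35 lower of 61 tested, with a median of -0.45, against 4.18% of loci higher, 86.0% lower and a median of -1.25. All 3 H/R libraries lay above all 3 controls for 53 genes and below them for 2 on the relative scale, beside 34.1% and 33.0% of all loci. The 7 genes higher on both scales were MRPL9, MRPL11, MRPL38, MRPL41, MRPL58, MRPS7 and MRPS12, while 21 of those that rose relative to the median locus were lower on the deposited scale. In the same comparison the 7 fibroblast markers tested had a median of -1.26, with 5 called lower and 1 called higher.

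MRPS7, which binds the ribosomal RNA in the head of the small subunit, had the largest log2 change together with MRPL41. This order depends on the 1 added before the log, which shrinks the change of low genes. As plain ratios of the mean relative values, H/R over control was 4.09 for MRPS7, 4.14 for MRPL41 and 4.09 for MRPL38. MRPS7 was at 18.7, 17.4 and 16.7 FPKM in control, 28.5, 24.6 and 25.2 after H/R and 26.6, 26.1 and 22.05 after GA+H/R. The H/R and GA+H/R libraries were all above the controls as deposited, and the log2 change in H/R was 1.92 ± 0.10 (SE, adjusted p = 5.1e-07) relative to the median locus and 0.54 (adjusted p = 0.000668) on the deposited scale. MRPL41, a large-subunit protein without a bacterial counterpart, was at 11.5, 15.04 and 12.6 FPKM in control, 21.2, 18.9 and 19.1 after H/R and 12.8, 15.3 and 15.4 after GA+H/R. All H/R libraries exceeded the controls, whereas the GA+H/R libraries lay between 12.8 and 15.4 FPKM. Its H/R change was 1.92 ± 0.13 (SE, adjusted p = 3.58e-06), and 0.57 (adjusted p = 0.00142) as deposited. MRPL9, the counterpart of bacterial L9, was at 30.3, 23.8 and 23.9 FPKM in control, 32.8, 35.1 and 41.5 after H/R and 35.04, 36.3 and 34.3 after GA+H/R, again with every H/R library above every control. Its H/R change was 1.88 ± 0.10 (SE, adjusted p = 8.39e-07), and 0.48 (adjusted p = 0.00387) as deposited.

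MRPL58, also known as ICT1, is a peptidyl-tRNA hydrolase built into the large subunit that can release stalled chains. It was at 4.36, 3.102 and 3.83 FPKM in control, 4.04, 5.85 and 5.48 after H/R and 5.82, 4.92 and 5.49 after GA+H/R, with 1 H/R library under the highest control. Its H/R change was 1.50 ± 0.14 (SE, adjusted p = 3.11e-05), with 0.36 (adjusted p = 0.0428) as deposited. MRPL38, a protein of the central protuberance, stood at 2.701, 2.05 and 1.93 FPKM in control and at 3.41, 3.48 and 2.98 in H/R, so that no H/R library overlapped a control. The 3 GA+H/R libraries, at 4.23, 4.15 and 4.05 FPKM, were higher still as deposited. MRPL38 rose by 1.42 ± 0.10 (SE, adjusted p = 3.93e-06) in H/R, with 0.42 as deposited. MRPL20 (1.59), an early-assembling protein in bacteria, MRPL40 (1.56), MRPL43 (1.51) and MRPL24 (1.46), which lies at the exit tunnel, also rose, and on the deposited scale their changes ranged from 0.16 to 0.22 and were not called.

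**Figure D2:**
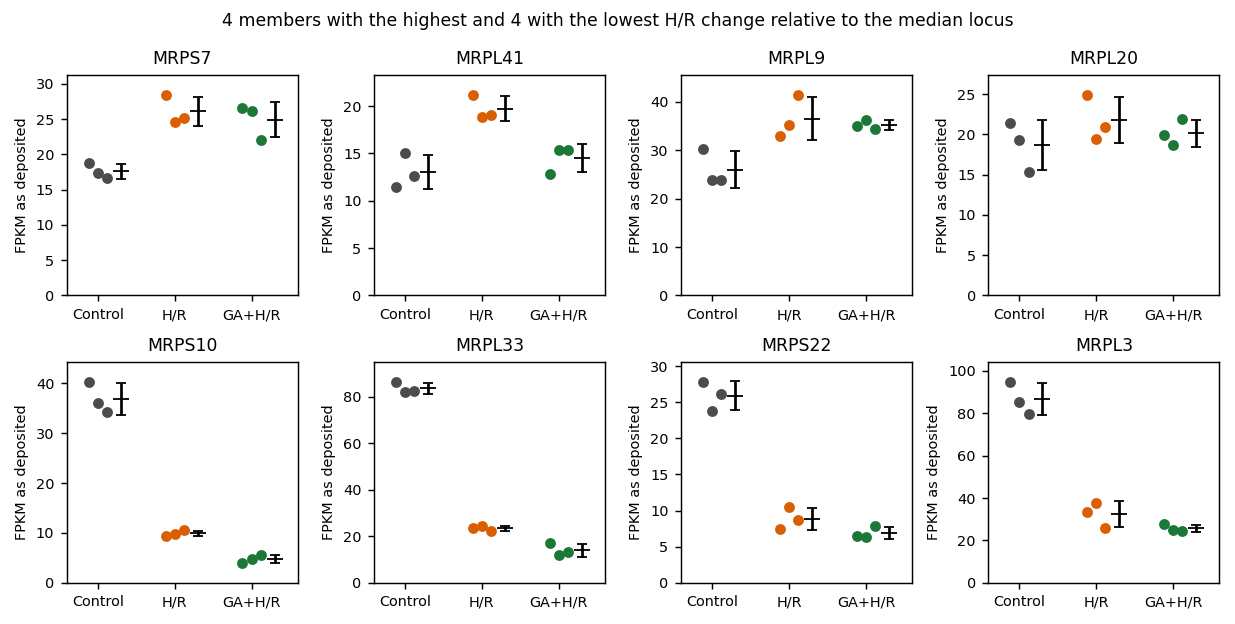
FPKM as deposited in each library (points) with the group mean (bar) for the 4 genes with the highest and the 4 with the lowest H/R change relative to the median locus. MRPS7, MRPL41, MRPL9 and MRPL20 have H/R means above their control means, whereas MRPS10, MRPL33, MRPS22 and MRPL3 have H/R levels far under every control.

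At the other end, MRPS10 and MRPL33 fell on both scales. MRPS10, like MRPS7 a protein of the small-subunit head, was at 40.3, 36.1 and 34.1 FPKM in control, 9.37, 9.795 and 10.5 after H/R and 3.88, 4.82 and 5.57 after GA+H/R. As deposited the groups did not overlap, and each H/R library was below every control and above every GA+H/R library. The H/R change was -0.41 ± 0.12 (SE, adjusted p = 0.017) relative to the median locus and -1.80 (adjusted p = 5.99e-07) as deposited. Without H/R 1, the adjusted p was 0.0547. MRPL33, the counterpart of bacterial L33, was at 86.4, 82.1 and 82.6 FPKM in control, 23.4, 24.3 and 22.4 after H/R and 17.2, 11.8 and 13.1 after GA+H/R. Its H/R change was -0.37 ± 0.13 (SE, adjusted p = 0.0324), and -1.80 (adjusted p = 5.74e-07) as deposited, and the call was lost when control 2 or 3 or any one of the H/R libraries was left out, and with no filter (adjusted p = 0.0588).

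A further 6 genes formed the low end without a call relative to the median locus. MRPS22, a small-subunit protein without a bacterial counterpart, changed from 25.9 ± 2.03 to 8.86 ± 1.55 FPKM (SD, n = 3), a log2 difference of -0.09 ± 0.14 (SE) relative to the median locus. MRPL3, which reaches towards the peptidyl transferase centre, went from 86.7 ± 7.56 to 32.5 ± 5.93 FPKM, with a difference of 0.03 ± 0.13. MRPL44, which has a ribonuclease III fold, MRPL13, MRPL35 and the pentatricopeptide repeat protein MRPS27 had differences of 0.08, 0.10, 0.11 and 0.24. All 6 were lower on the deposited scale, by log2 changes from -1.46 to -1.02.

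Genes of the same subunit therefore changed by different amounts. The MRPS7 to MRPS10 ratio of FPKM inside a library, which no scaling of a library can alter, was 0.479 ± 0.012 in control, 2.65 ± 0.339 after H/R and 5.41 ± 1.45 after GA+H/R (SD, n = 3). The MRPL9 to MRPL33 ratio was 0.310 ± 0.0356, 1.57 ± 0.249 and 2.58 ± 0.518. Both pairs were chosen after their values were seen, so the ratios only describe how far apart the ends of the family lie.

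Genes of both subunits rose. In the large subunit 31 of 39 genes tested rose and 1 fell in H/R, with a median of 0.90, and in the small subunit 15 of 22 rose and 1 fell, with a median of 0.69. On the deposited scale the counts were 5 higher and 20 lower in the large subunit, and 2 higher and 14 lower in the small subunit. Over all loci 29.2% rose and 28.4% fell, and as deposited 4.18% were higher and 86.0% lower. The summed FPKM of the large subunit over that of the small subunit was 3.58 ± 0.167 in control, 3.55 ± 0.137 after H/R and 3.83 ± 0.107 after GA+H/R (SD, n = 3), with overlapping control and H/R libraries. The ratio of the medians of the subunits, on which single high genes such as MRPL17 weigh less, was 1.16 ± 0.137, 1.24 ± 0.09 and 1.60 ± 0.367, and overlapped between all groups. Of proteins with a bacterial counterpart, 29 of 38 rose and 2 fell (median 0.87), and of proteins without one, MRPS36 included, 18 of 24 rose and 0 fell (median 0.69, with 0 also at an unadjusted p under 0.05 in limma). As deposited, 4 and 3 were higher and 22 and 13 lower in these classes.

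Arranged by position in the ribosome, the proteins at the polypeptide exit tunnel were MRPL17, MRPL22, MRPL24, MRPL45 and MRPL47. All 5 rose in H/R, with a median of 0.90, beside 29.2% of all loci. On the deposited scale 4 of the 5 were lower, beside 86.0% of all loci. MRPL45 contacts the inner membrane and anchors the ribosome beside the insertion machinery. It was at 24.4, 24.9 and 25.1 FPKM in control, 18.2, 16.9 and 17.3 after H/R and 13.7, 16.4 and 11.6 after GA+H/R, with the controls above the H/R libraries as deposited and a log2 change of 0.90 ± 0.12 (SE, adjusted p = 0.000262) relative to the median locus and -0.49 as deposited. MRPL17 was at 224, 298 and 314 FPKM in control, 158, 152 and 163 after H/R and 142, 159 and 153 after GA+H/R, and its change was 0.65 ± 0.14 (SE, adjusted p = 0.00416), with -0.80 as deposited. In the central protuberance, where the mitochondrial ribosome holds a transfer RNA in place of the bacterial 5S RNA, MRPL18, MRPL38 and MRPL40 rose, and MRPL46 and MRPL48 had differences of 0.36 ± 0.19 and 0.44 ± 0.37. As deposited, MRPL38 was higher and MRPL46 and MRPL48 were lower.

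Around the peptidyl transferase centre, where peptide bonds form, MRPL16 and MRPL27 rose by 0.61 ± 0.10 and 1.24 ± 0.16, whereas MRPL3 was not called. As deposited, MRPL16 and MRPL3 were lower, at -0.55 and -1.40, and MRPL27 was not called. MRPL10 and MRPL11, at the base of the stalk that recruits translation factors, rose by 0.67 ± 0.12 and 1.24 ± 0.13, and were lower and higher as deposited, at -0.56 and 0.29. MRPL1, of the stalk that handles the leaving transfer RNA, had a difference of 0.37 ± 0.15 (SE, adjusted p = 0.0595). In the small-subunit head, which moves the messenger and transfer RNAs, MRPS7, MRPS14, MRPS24, MRPS33 and MRPS35 rose, MRPS10 fell, and MRPS9 and MRPS31 had differences of 0.35 and 0.51. In that head, 7 of the 8 genes were lower as deposited, beside 86.0% of all loci. MRPS12, at the decoding centre, was low at 1.998, 1.78 and 1.55 FPKM in control and 2.397, 2.37 and 2.598 in H/R, and rose by 1.25 ± 0.12, with 0.32 as deposited. MRPS36, the dehydrogenase component, rose by 0.42 ± 0.14 (SE, adjusted p = 0.0324), with -0.72 as deposited.

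The genes that rose were spread over the whole range of levels. Of the members with a mean under 5 FPKM, 14 of 19 rose, with 17 of 23 between 5 and 15 FPKM, 14 of 18 between 15 and 50 FPKM and 2 of 2 at 50 FPKM and over. Over all loci in the same bins 30.5%, 32.2%, 30.2% and 23.9% rose, and 12.4%, 22.7%, 30.8% and 52.1% fell. The 2 members that fell lay between 15 and 50 FPKM. In the lowest bin MRPL11, MRPL14, MRPS12, MRPS18B and MRPS25 rose. They reached the minimum for the test in every H/R library but not in every control. The filter favours such genes, so it partly sets the count of the lowest bin.

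**Figure D3:**
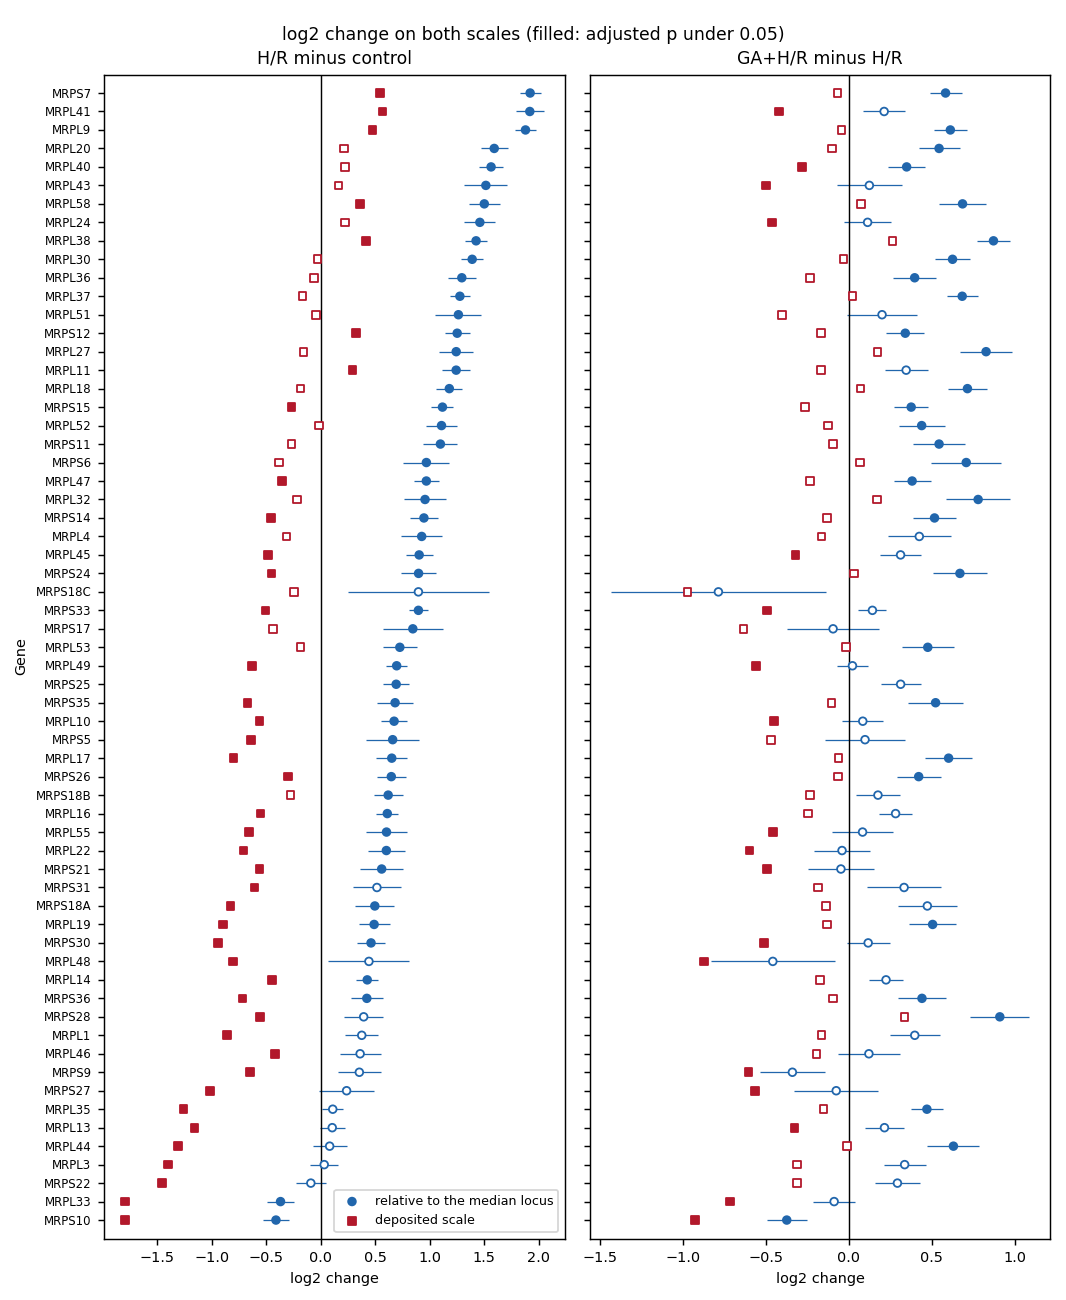
The log2 change of each tested gene in H/R against control and in GA+H/R against H/R, relative to the median locus (circles) and on the deposited scale (squares), filled where the adjusted p is under 0.05. In H/R, 47 circles are filled to the right of 0 and 2 to the left, whereas 7 squares are filled to the right and 35 to the left.

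Gallic acid pretreatment under the injury is addressed by GA+H/R against H/R. Relative to the median locus, 29 of the 62 genes rose, 1 fell and 32 were not called, beside 18.7% of all loci that rose and 15.2% that fell. The median log2 change of the genes was 0.35, against 0.00 for all loci, and ranged from -0.78 to 0.91. On the deposited scale 0 were higher (1 at an unadjusted p under 0.05 in limma) and 18 lower, with a median of -0.19, beside 1.69% of loci higher, 64.3% lower and a median of -0.50. All 3 GA+H/R libraries lay above all 3 H/R libraries for 35 genes and below them for 1, beside 27.4% and 24.5% of loci. The count of 29 became 16 without H/R 3. In the same comparison 6 of 6 macrophage markers tested rose, with a median of 2.25. Only 4 were tested on the deposited scale, and all 4 were higher. Of the 9 macrophage markers measured, 3 were not tested relative to the median locus. A marker can pass the filter through the GA+H/R libraries alone, in which the summed level of these markers is highest. The part of these markers in the change of the family was not tested. Control and H/R libraries enter more than one comparison, so the changes of a gene in H/R against control and in GA+H/R against H/R share the H/R libraries and are not independent.

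MRPS28, a protein of the small subunit, had the greatest rise with gallic acid. It was at 2.79, 2.94 and 2.21 FPKM in control, 1.34, 1.19 and 1.94 after H/R and 2.67, 2.13 and 1.64 after GA+H/R. As deposited the GA+H/R and H/R libraries overlapped, and the log2 change was 0.91 ± 0.18 (SE, adjusted p = 0.00492) relative to the median locus and 0.34 (adjusted p = 0.092) as deposited. MRPL38 rose in this comparison too, by 0.87 ± 0.10 (SE, adjusted p = 0.000307), with 0.26 as deposited. MRPL27 was at 30.4, 28.5 and 25.8 FPKM in control, 26.1, 26.6 and 22.8 after H/R and 32.5, 32.9 and 21.4 after GA+H/R, levels that overlap between groups as deposited. Its change was 0.83 ± 0.16 (SE, adjusted p = 0.00416), with 0.17 (adjusted p = 0.355) as deposited.

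MRPL32, a zinc-binding protein that must be cleaved by the m-AAA protease before it joins the large subunit, was at 5.597, 3.94 and 6.05 FPKM in control, 4.61, 3.72 and 4.47 after H/R and 4.18, 6.69 and 4.19 after GA+H/R. Its change of 0.78 ± 0.19 (SE, adjusted p = 0.0145) lost its call without H/R 2 (adjusted p = 0.0542). MRPL18, counterpart of the bacterial protein that binds 5S RNA, was at 18.3, 17.8 and 17.2 FPKM in control, 15.8, 16.7 and 14.03 after H/R and 13.7, 17.1 and 18.5 after GA+H/R, overlapping between H/R and GA+H/R as deposited, and rose by 0.72 ± 0.12 (SE, adjusted p = 0.00217) relative to the median locus. MRPS6 (0.71), MRPL58 (0.69) and MRPL37 (0.68) rose too, with 0.07, 0.08 and 0.02 as deposited, and the call for MRPS6 was lost without H/R 2, H/R 3 or GA+H/R 2, with equal totals (adjusted p = 0.0739), with no filter (adjusted p = 0.061) and with the replicate number as a block (adjusted p = 0.0562). MRPL37 was at 94.1 ± 7.15 FPKM after H/R and 95.5 ± 4.13 after GA+H/R (SD, n = 3).

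MRPS10 was the gene that fell in GA+H/R against H/R, with a log2 change of -0.37 ± 0.12 (SE, adjusted p = 0.0422) relative to the median locus and -0.93 (adjusted p = 0.00023) as deposited. The relative call was kept without control 1 and without GA+H/R 3, and was lost when any other library was left out, with no filter (adjusted p = 0.0649) and with the replicate number as a block (adjusted p = 0.0538). MRPS18C, one of the proteins related to bacterial S18, was at 3.08, 3.66 and 3.96 FPKM in H/R and 2.005, 3.17 and 0 in GA+H/R, where the third library is listed at 0. Its difference of -0.78 ± 0.65 was not called and became 0.16 without GA+H/R 3. MRPL48, MRPS9 and MRPS17 had differences of -0.46, -0.34 and -0.09, also without a call. MRPL48 went to 0.02 without GA+H/R 3 and MRPS17 to 0.13 without GA+H/R 2 and 0.05 without GA+H/R 3, whereas MRPS9 fell without GA+H/R 2 (log2 change -0.60, adjusted p = 0.0112). As deposited, MRPL48 and MRPS9 were lower, at -0.87 (adjusted p = 0.0308) and -0.60 (adjusted p = 0.00918).

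By subunit, 18 of 39 large-subunit genes rose and 0 fell (0 also at an unadjusted p under 0.05 in limma) with a median of 0.38, and 10 of 22 small-subunit genes rose and 1 fell with a median of 0.32. As deposited, 13 and 5 were lower and 0 and 0 higher (1 and 0 at an unadjusted p under 0.05). At the exit tunnel MRPL17 and MRPL47 rose, in the central protuberance MRPL18, MRPL38 and MRPL40, and at the peptidyl transferase centre MRPL27. In the small-subunit head MRPS7, MRPS14, MRPS24 and MRPS35 rose. The stalk-base proteins MRPL10 and MRPL11 had differences of 0.08 and 0.35 and were not called. None of the genes named in these positions was higher as deposited, and MRPL40 and MRPL10 were lower there, at -0.28 and -0.45. With the genes not named included, 3 of 5 at the exit tunnel, 2 of 5 in the central protuberance and 3 of 8 in the head were lower. At the stalk base 1 of 2 was lower, and at the peptidyl transferase centre 0 of 3 (2 at an unadjusted p under 0.05 in limma). Over all loci 64.3% were lower and 1.69% higher as deposited, while 18.7% rose and 15.2% fell.

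The last comparison set GA+H/R cells against untreated control cells. There 55 of the 62 genes rose and 2 fell relative to the median locus, beside 33.7% and 35.5% of all loci. The 2 that fell were MRPS10, at -0.79 ± 0.12 (SE, adjusted p = 0.000359), and MRPL33, at -0.46 ± 0.13 (SE, adjusted p = 0.0101). The median of the genes was 1.13 against -0.05 for all loci, and as deposited 4 were higher and 38 lower, with a median of -0.61 against -1.77, beside 4.10% and 90.1% of loci. The GA+H/R libraries lay above all controls for 56 genes and below them for 2 on the relative scale, beside 35.0% and 36.5% of loci. The 4 genes higher on both scales were MRPS7 (2.50 relative to the median locus), MRPL9 (2.49), MRPL38 (2.30) and MRPL58 (2.19). As plain ratios of the mean relative values, GA+H/R over control was 6.18, 5.93, 8.16 and 6.29 for these genes. MRPL30, the counterpart of bacterial L30, was at 48.7, 39.3 and 39.5 FPKM in control, 37.7, 47.99 and 38.97 after H/R and 41.6, 41.8 and 37.97 after GA+H/R, so that the groups overlapped as deposited while its change relative to the median locus was 2.01 ± 0.10. The genes' summed FPKM was 1345 ± 46.6 in control, 892 ± 10.6 after H/R and 790.7 ± 19.3 after GA+H/R (SD, n = 3), which was 0.0803% ± 0.00386, 0.120% ± 0.00311 and 0.159% ± 0.012 of the total FPKM of a library. A test across the 3 groups in the authors' deposited table marked 42 of the 65 genes, or 64.6%, beside 56% of all loci, without naming a pair of groups.

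The family was set beside other gene sets by the ratio of its median FPKM to theirs inside each library, a quantity that scaling does not alter. Against cytosolic ribosomal proteins, which build the ribosomes of the cytosol, the ratio was 0.0491 ± 0.0017 in control, 0.0372 ± 0.00135 after H/R and 0.0237 ± 0.000588 after GA+H/R (SD, n = 3), and each group lay wholly below the one before it. Of those cytosolic genes 63 of 65 rose in H/R and 61 rose with gallic acid, with medians of 1.47 and 0.76. As deposited, 27 and 23 were higher and 22 and 4 lower. Against nuclear genes of the respiratory chain and ATP synthase, the complexes that hold the products of mitochondrial translation, the ratio was 0.311 ± 0.0107, 0.326 ± 0.0048 and 0.278 ± 0.006. The H/R libraries, at 0.321 to 0.330, lay just above the controls, at 0.299 to 0.318, and the GA+H/R libraries below both. Of 44 such genes tested, 36 rose in H/R and 26 with gallic acid, with medians of 0.88 and 0.39. As deposited 7 and 2 of 42 tested were higher and 29 and 16 lower. Beside both sets, 29.2% of all loci rose in H/R and 18.7% with gallic acid. Of all loci as deposited, 4.18% and 1.69% were higher and 86.0% and 64.3% lower.

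**Figure D4:**
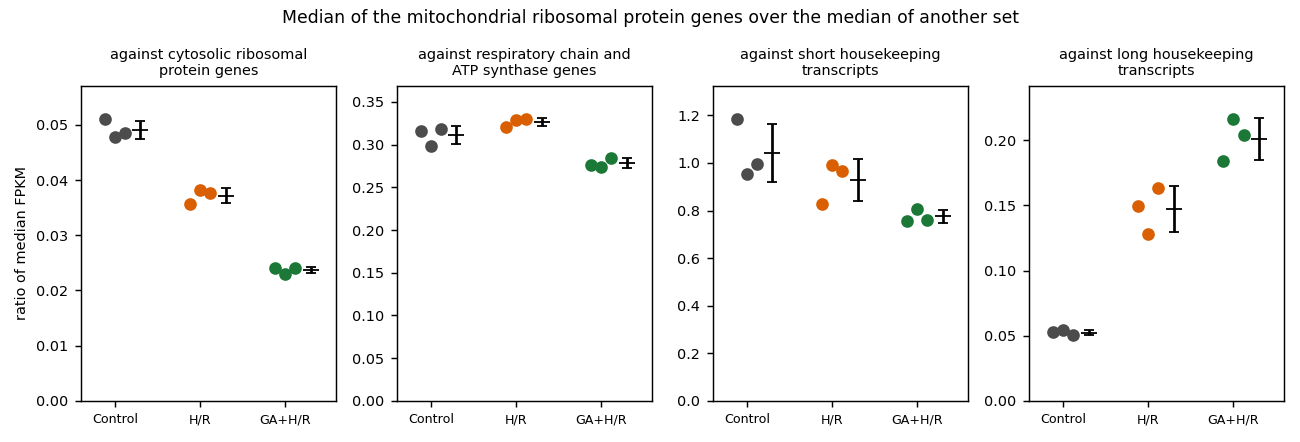
Ratio of the median FPKM of the mitochondrial ribosomal protein genes to the median FPKM of another gene set inside each library (points), with the group mean (bar). The ratio to cytosolic ribosomal proteins went from 0.0491 in control to 0.0237 in GA+H/R, and that to long housekeeping transcripts from 0.0523 to 0.201.

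Sets of housekeeping genes with short and with long transcripts moved apart in the same libraries. Of 33 short housekeeping genes tested, 24 rose and 1 fell in H/R (median 0.98), and 17 rose and 0 fell with gallic acid (median 0.36, with 0 lower at an unadjusted p under 0.05 in limma). Of 37 long ones, 0 rose and 30 fell in H/R (median -0.53), and 0 rose and 25 fell with gallic acid (median -0.39), with 0 higher at an unadjusted p in both. Over all loci 29.2% rose and 28.4% fell in H/R, and 18.7% and 15.2% with gallic acid. As deposited, 3 short genes were higher and 17 lower in H/R, and all 37 long ones were lower, beside 86.0% of all loci lower. The ratio of the mitochondrial ribosomal protein median to the short set was 1.04 ± 0.122 in control, 0.929 ± 0.0885 after H/R and 0.775 ± 0.0278 after GA+H/R (SD, n = 3), with control and H/R libraries overlapping and GA+H/R below both. To the long set it was 0.0523 ± 0.00172, 0.147 ± 0.0177 and 0.201 ± 0.0162, with no overlap between groups. Most mitochondrial ribosomal protein transcripts are short, their lengths in this table were not analysed here, and the part of transcript length in the changes above was not tested.

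**Figure D5:**
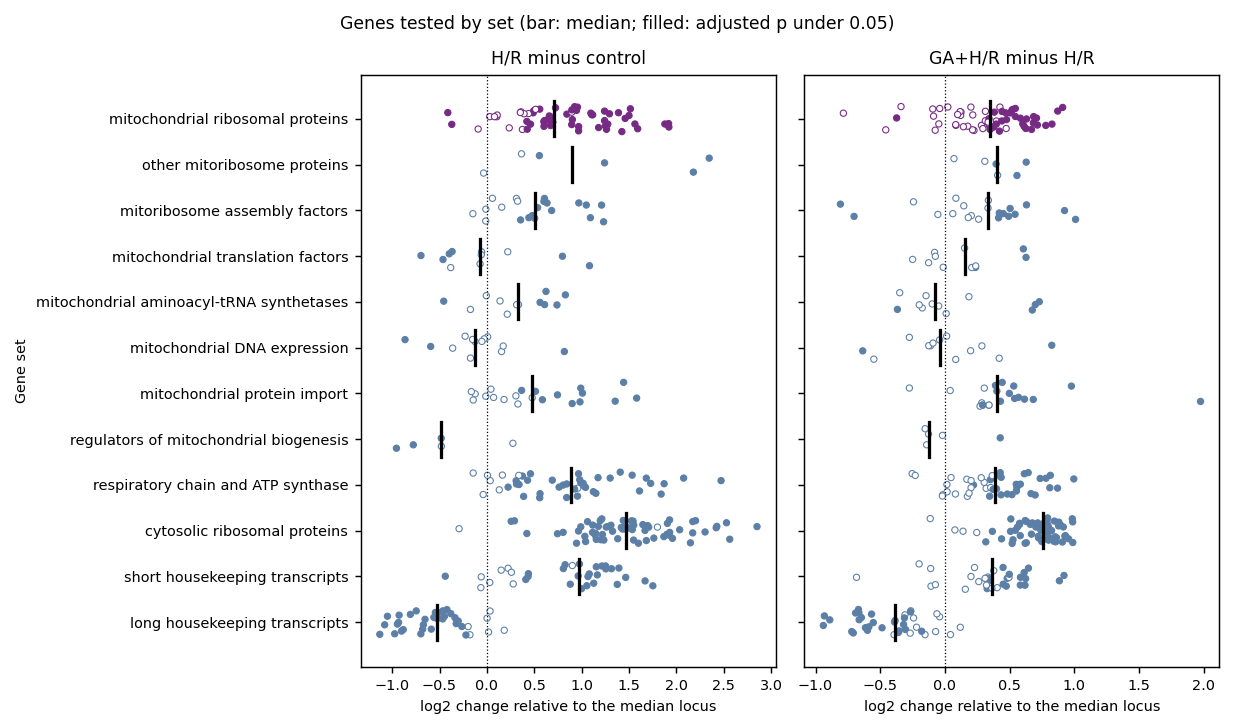
The log2 change relative to the median locus of every tested gene (points, filled where the adjusted p is under 0.05) by gene set, in H/R against control and in GA+H/R against H/R, with the set's median (bar). Mitochondrial ribosomal proteins have medians of 0.71 and 0.35, cytosolic ribosomal proteins 1.47 and 0.76, and long housekeeping transcripts -0.53 and -0.39.

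Proteins of the mitochondrial ribosome that carry other names were examined beside the family, together with OXA1L, which is not a ribosomal protein. Of 6 tested, OXA1L included, 4 rose in H/R and 3 with gallic acid, with medians of 0.90 and 0.40. In either comparison 0 fell (0 also at an unadjusted p under 0.05 in limma). Over all loci 29.2% and 18.7% rose and 28.4% and 15.2% fell. AURKAIP1, a small-subunit protein first described as a binder of Aurora kinase A, was at 31.6, 32.6 and 28.2 FPKM in control, 56.98, 61.9 and 59.8 after H/R and 46.2, 53.1 and 49.5 after GA+H/R, with all treated libraries above the controls, and rose by 2.35 ± 0.08 (SE, adjusted p = 4.1e-08) in H/R, beside 1.92 for MRPS7. GADD45GIP1, of the large subunit, was at 5.18, 4.67 and 3.07 FPKM in control, 9.54, 10.1 and 8.44 after H/R and 8.33, 10.98 and 8.84 after GA+H/R and rose by 2.18 ± 0.15 (SE, adjusted p = 3.8e-06). Both were higher in H/R as deposited too, at 0.93 and 0.98. CHCHD1 rose by 1.24 ± 0.14, with -0.03 as deposited, and OXA1L, the insertase that receives nascent chains at the inner membrane, by 0.55 ± 0.11, though OXA1L was lower as deposited, at -0.87. DAP3, a GTP-binding small-subunit protein, had a difference of 0.37 ± 0.15 (SE, adjusted p = 0.0711) in H/R and rose by 0.56 ± 0.15 with gallic acid, and PTCD3, at the mRNA entry, had differences of -0.03 and 0.31 without a call.

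Assembly factors of the mitochondrial ribosome, such as GTPases, helicases and RNA-modifying enzymes, also moved upwards relative to the median locus. In H/R 14 of 21 tested rose and 0 fell (0 also at an unadjusted p under 0.05 in limma), with a median of 0.50. Over all loci 29.2% rose and 28.4% fell. As deposited 0 were higher (0 unadjusted) and 17 lower, beside 4.18% and 86.0% of all loci. MTG1, a GTPase that acts late in large-subunit assembly, rose by 1.09 ± 0.12, the RNA methyltransferase MRM2 by 1.23 ± 0.17 and RPUSD4, a pseudouridine synthase, by 1.05 ± 0.12. DHX30, an RNA helicase, and MTERF3 had differences of 0.16 and -0.01. With gallic acid 9 (42.9%) rose and 2 (9.52%) fell, beside 18.7% and 15.2% of all loci. As deposited 1 was higher and 8 lower, beside 1.69% and 64.3% of all loci. The 2 that fell, both acting on the large subunit, were GTPBP10, at -0.70 ± 0.19 (SE, adjusted p = 0.0221), and DDX28, at -0.81 ± 0.24 (SE, adjusted p = 0.0323). MRM3, a methyltransferase of the large ribosomal RNA, rose by 1.01 ± 0.09 (SE, adjusted p = 8.31e-05) and RPUSD3 by 0.92 ± 0.16 (SE, adjusted p = 0.0027).

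Factors that work with the assembled ribosome were counted separately. The set of translation factors also holds SLIRP and LRPPRC, which act in mitochondrial mRNA stability. Of its 11 genes tested, 2 (18.2%) rose and 4 (36.4%) fell in H/R, with a median of -0.07, beside 29.2% and 28.4% of all loci. All 11 were lower as deposited, as were 86.0% of loci. TUFM, the elongation factor that delivers transfer RNAs, was at 37.7, 31.2 and 28.5 FPKM in control, 25.9, 26.5 and 24.4 after H/R and 27.4, 23.9 and 24.3 after GA+H/R and rose by 1.08 ± 0.09 (SE, adjusted p = 1.4e-05), with -0.32 as deposited. SLIRP rose by 0.80 ± 0.16, and its partner in mitochondrial mRNA stability, LRPPRC, fell, with a log2 change of -0.40 ± 0.08 (SE, adjusted p = 0.00181). The initiation factor MTIF3 (-0.70), the elongation factor GUF1 (-0.46) and the recycling factor GFM2 (-0.37) fell as well. With gallic acid 3 (27.3%) rose (LRPPRC, TUFM and the release factor MTRF1, at 0.24, 0.63 and 0.61) and 0 fell (0 also unadjusted in limma). Over all loci 18.7% rose and 15.2% fell. As deposited 0 of the 11 were higher and 7 lower, beside 1.69% and 64.3% of all loci. Of 12 mitochondrial aminoacyl-tRNA synthetases and related enzymes tested, 5 (41.7%) rose and 1 (8.33%) fell in H/R, with a median of 0.32, beside 29.2% and 28.4% of all loci. With gallic acid 3 (25%) rose and 1 (8.33%) fell, with a median of -0.07, beside 18.7% and 15.2%. All 12 were lower in H/R as deposited, beside 86.0% of loci.

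Genes for the expression and upkeep of mitochondrial DNA included 13 tested, of which 1 (7.69%) rose and 2 (15.4%) fell in H/R, with a median of -0.13, beside 29.2% and 28.4% of all loci. All 13 were lower as deposited, beside 86.0% of loci. TFAM, which packages mitochondrial DNA and starts its transcription, was at 31.6, 23.9 and 24.2 FPKM in control, 5.95, 4.64 and 4.42 after H/R and 4.65, 3.58 and 3.57 after GA+H/R. The controls were all above the H/R libraries, and it fell, with a log2 change of -0.86 ± 0.15 (SE, adjusted p = 0.000951) relative to the median locus and -2.20 as deposited. MTERF1 fell, at -0.59 ± 0.15, and HSD17B10, a subunit of mitochondrial RNase P, rose by 0.82 ± 0.13 in H/R and 0.83 ± 0.13 with gallic acid. POLG, the mitochondrial DNA polymerase, fell with gallic acid, at -0.64 ± 0.12 (SE, adjusted p = 0.00426).

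Protein import components carry the family's products into the mitochondrion, and 11 of 21 tested rose in H/R and 13 with gallic acid, with medians of 0.48 and 0.40 and 0 that fell (0 and 1 at an unadjusted p under 0.05 in limma). As deposited 1 and 1 of 18 tested were higher, beside 4.18% and 1.69% of all loci, and 13 and 5 lower, beside 86.0% and 64.3%. PAM16, a regulator of the import motor, was at 9.99, 9.16 and 9.35 FPKM in control, 12.2, 13.6 and 9.51 after H/R and 24.4, 32.9 and 34.1 after GA+H/R. PAM16 rose by 1.58 ± 0.16 (SE, adjusted p = 3.8e-05) in H/R and by 1.98 ± 0.16 (SE, adjusted p = 4.59e-05) with gallic acid. As deposited it was higher with gallic acid too, by 1.30. Of 5 regulators of mitochondrial biogenesis tested, 0 rose (0 unadjusted in limma) and 3 fell in H/R, beside 29.2% and 28.4% of all loci. GABPA and GABPB1, the subunits of nuclear respiratory factor GABP, fell, with log2 changes of -0.95 ± 0.12 and -0.78 ± 0.14, as did YY1, at -0.48 ± 0.11. GABPA was at 76.4, 66.7 and 58.2 FPKM in control, 11.9, 13.9 and 11.02 after H/R and 11.1, 9.26 and 11.2 after GA+H/R and rose by 0.43 ± 0.12 (SE, adjusted p = 0.0217) with gallic acid, though it was -0.20 as deposited. PPARGC1A, ESRRA, PPRC1 and NRF1, other regulators of these genes, were under the minimum for the test, with 0.325, 0.427, 0.424 and 1.55 FPKM in control. The wider set of 906 other loci annotated to the mitochondrion held 370 (40.8%) that rose and 152 (16.8%) that fell in H/R, with a median of 0.23. With gallic acid 252 (27.8%) rose and 53 (5.85%) fell, with a median of 0.18. Over all loci 29.2% rose and 28.4% fell in H/R, and 18.7% and 15.2% with gallic acid. As deposited, 35 and 12 of 907 tested were higher and 748 and 478 lower. The shares of all loci there were 4.18% and 1.69% higher and 86.0% and 64.3% lower.

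Some rows could not be assigned to a single gene. The joined loci CUL7;MRPL2, LOC103348348;MRPL42, CUEDC1;MRPS23 and DNAJC9;MRPS16 were left out, with control means of 129.6, 19.5, 126.9 and 9.58 FPKM and H/R means of 49.5, 5.77, 77.3 and 5.63. As deposited all were lower in H/R. Relative to the median locus, the loci with MRPS23 and MRPS16 rose in H/R, by 0.74 and 0.61. Those with MRPL2 and MRPL42 had differences of 0.07 and -0.28 without a call. A further 38 loci without a gene symbol are described in the table as mitochondrial ribosomal proteins, and 6 of them had a mean of at least 1 FPKM. The highest were LOC100356693, described as MRPL15, at 63.0 FPKM, LOC100353731, described as MRPS33, at 4.36, and LOC100343402, described as MRPL23, at 3.80. For 21 of the 65 genes such a locus exists. Reads from near-identical copies could be split between them, and the levels of MRPS33, MRPL40, MRPL9 and MRPL20, which have such a copy above 1 FPKM, are uncertain to that extent.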

How the data were processed

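The 9 libraries were given in 1 table of FPKM for 19511 loci, deposited by the authors per the file headers. The aligner, quantifier and scaling are not given in the sources used here. Mouse builds are named in the submitters' processing notes, whereas the table describes rabbit transcripts, so no coordinates are printed. A p-value and a q-value deposited by the authors test the 3 groups together, and the resulting mark is quoted once.

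For the main scale, a library's values were divided by its median ratio to the average library, taken over 8448 loci that reached 1 FPKM in every library. A locus was tested if its scaled value reached 1 in 3 or more libraries. The fit used limma 3.58.1 (R 4.3.3) on log2 of the scaled value plus 1, with group means, trend and robust moderation. Two-sided p-values received the Benjamini-Hochberg adjustment across every locus tested, with calls under 0.05. Fold changes on this log2 scale understate the change of low genes. Alternatives covered the scale, pseudocount, filter, replicate number as a block and each library left out. The members and lists were chosen with earlier results of these data known. Named genes are the 8 highest and 8 lowest members of each comparison, those with a known position in the ribosome, the members under the filter, and from each list those with the highest level or the largest change; further genes were chosen after their values were seen. Protein lengths, promoter motifs and sequences were not analysed here.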

Additional observations from a re-analysis of the deposited data

How the results depend on the processing

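The scale decided the direction for most of the family. On the deposited scale 7 members were higher and 35 lower in H/R against control (median -0.45), 0 higher and 18 lower in GA+H/R against H/R (median -0.19), and 4 higher and 38 lower in GA+H/R against control (median -0.61). Changes in H/R then turned to -1.40 for MRPL3, -1.31 for MRPL44, -1.16 for MRPL13, -1.26 for MRPL35 and -1.02 for MRPS27, and those in GA+H/R against control to -0.0636 for MRPL30, -1.26 for MRPS9, -1.22 for MRPS18C, -1.58 for MRPS27, -1.77 for MRPS22 and -1.49 for MRPL13. These were not called relative to the median locus, except MRPL13 and MRPL30 in GA+H/R against control. Of the members called higher relative to the median locus, 21 in H/R, 1 with gallic acid and 31 in GA+H/R against control were called lower as deposited, such as MRPL17 in H/R (0.65 and -0.80). By construction this scale keeps the shift of the median locus. With equal totals the medians were 0.549, 0.267 and 0.827, 16 members rose with gallic acid, and MRPL13 turned to -0.00592 in GA+H/R against control. Quantile normalization gave medians of 0.611 and 0.973 in H/R and GA+H/R against control, a pseudocount of 0.1 gave 0.95 and 1.27, and the stricter filter of 5 gave 0.896 and 1.25. Without a filter 1 member fell in H/R, 19 rose and 0 fell with gallic acid, and the median in GA+H/R against control was 1.04. The cause was not tested.

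Leaving out each library in turn gave 41 to 49 members higher and 0 to 2 lower in H/R (median 0.721 to 0.776), 16 to 30 higher and 0 to 1 lower with gallic acid (0.335 to 0.388), and 48 to 54 higher and 2 to 2 lower in GA+H/R against control (1.03 to 1.17). Without control 1, which stood apart, 46 rose and 2 fell in H/R, and 30 and 1 with gallic acid. The replicate block gave 47 higher and 2 lower, 23 higher and 0 lower, and 52 higher and 2 lower in the 3 comparisons. Deviations from the group means correlated at -0.018 to 0.026 between libraries that share a number. No shared deviation was seen, but this cannot tell whether such libraries come from the same animal or culture. Depth is unknown and limits what can be said of genes near 1 FPKM.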
